A study of Mus musculus with 10 samples.

Results

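The nuclear genes for the subunits of oxidative phosphorylation were examined in the left ventricle of mice with chronic kidney disease (CKD) and of sham-operated mice. Genes were taken by symbol: entries starting with Nduf, Uqcr, Cox4 to Cox8 or Atp5, together with Sdha, Sdhb, Sdhc and Sdhd. A mean of at least 1 FPKM (fragments per kilobase of transcript, scaled to the mapped fragments of the library, so that levels are corrected for transcript length and library size) over all 10 libraries was also required. Of 23303 gene entries, 92 had such a symbol and 89 passed the minimum, among 11651 entries that passed it in all. These 89 genes comprised 35 of complex I, 4 of complex II, 8 of complex III, 17 of complex IV and 15 of complex V. The others were 7 assembly factors of complex I (Ndufaf genes), the supercomplex factor Cox7a2l, and Atp5s and Atp5sl, which carry the synthase name but are not subunits of it. The mice were males of the 129X1/SvJ strain, 5 with CKD and 5 sham-operated, with 1 library per mouse. The labels enter CKD and Sham as kinds of surgery, while the operation itself and the age of the mice are not given in the sources used here, and no treatment is named in either group.

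Oxidative phosphorylation takes place in the inner mitochondrial membrane. Complexes I and II pass electrons from NADH and succinate to ubiquinone, complex III passes them on to cytochrome c, and complex IV passes them to oxygen. Complexes I, III and IV pump protons, and complex V, the ATP synthase, uses the proton gradient to make ATP. The working heart depends on this pathway, and heart and skeletal muscle use their own forms of several complex IV subunits. A part of the subunits is encoded in mitochondrial DNA and was not analysed here. No gene entry had a symbol starting with mt-, so the ranks and FPKM totals below are without these genes.

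The libraries were alike in breadth, with 15467 to 15832 gene entries above 0 and a summed FPKM of 570509 to 605007. CKD 1 and Sham 1 stood apart from the other 8 libraries. Their 10 most abundant genes made up 14.8% and 15.3% of the FPKM total, and those of the remaining mice 17.6% to 18.2%. Markers of cardiomyocytes were high in every library (summed FPKM of 9 listed genes and Myh6, 53569 to 68077). Tnnt2 was at 5835 FPKM in CKD 1 and 6222 FPKM in Sham 1, and at 10001 to 11311 FPKM in the remaining mice. Tnni3, Myl2 and Myl3 were also lowest in CKD 1 and Sham 1, while Pln was highest in them and the other markers were mixed. Myh6 itself was listed at 0 in all 10 libraries. Since Myh6 is the main myosin heavy chain of the adult mouse ventricle, a listed 0 or near 0 in this table may be a failed estimate and not a low level. Of 4 macrophage genes 3 rose in CKD (Cd68, Csf1r and C1qa), and the sum of the 4 was 62.5 to 71.2 FPKM in the sham-operated mice and 92.4 to 128 FPKM in the diseased ones. Of 5 fibroblast genes 2 rose (Lum and Col1a1). The others were not called: Pdgfra (log2 difference 0.055) and Dcn (0.073) were above 0 and Tcf21 (-0.13) below. The sum of the 5 was 484 to 543 FPKM in Sham and 530 to 654 FPKM in CKD. Most of it came from Dcn (mean 438 FPKM in Sham and 461 FPKM in CKD). None of 9 tested cardiomyocyte, 4 endothelial and 4 smooth muscle genes was called in either direction. Of 2 brown fat genes, Ucp1 reached at most 0.0594 FPKM and Cidea was at 23.6 to 30.4 FPKM, and 4 skeletal muscle myosin and actinin genes together at most 3.61 FPKM. In whole ventricle, fewer cells of a type and less RNA per cell cannot be told apart, and whether the macrophage and fibroblast genes had a part in the values below was not tested.

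In Sham hearts these genes were among the most abundant of the listed gene entries, which lack the mitochondrially encoded genes. None was among the 10 genes with the highest mean FPKM, but 8 were among the top 20, 23 among the top 50 and 41 among the top 100. Median levels increased in order from complex I to complex V. The median Sham FPKM was 633 in complex I, 677 in complex II, 1406 in complex III, 1591 in complex IV and 1725 in complex V. The Ndufaf assembly factors, which help to build complex I but are not part of it, had a median of 21.5 FPKM. The highest level was that of Atp5b, the catalytic beta subunit of the synthase, at 4354 ± 146 FPKM (SD, n = 5). It was followed by Atp5k (subunit e of the synthase membrane part) at 4247 ± 466 FPKM and by Cox7a1 (the muscle form of a complex IV subunit) at 3960 ± 209 FPKM. The spread of Atp5k and Atp5b overlapped, so that their order is not resolved.

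**Figure D1:**
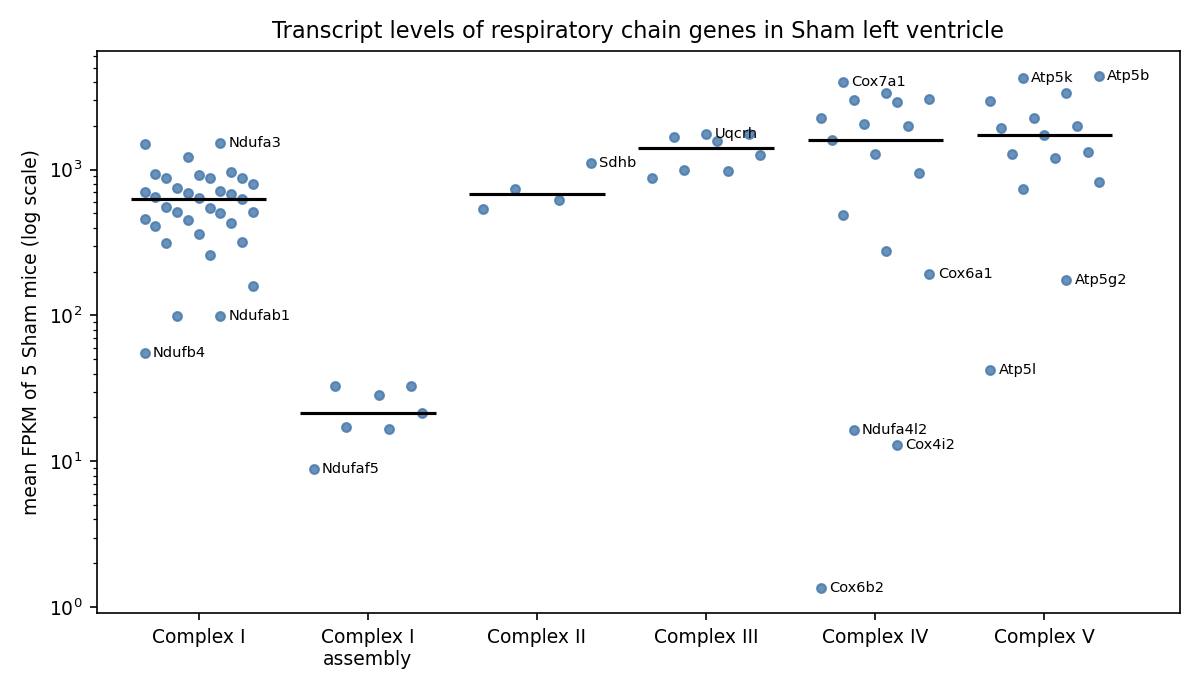
Mean FPKM over 5 Sham mice (y axis, log scale) for each gene of complexes I to V and the complex I assembly factors, 1 point per gene, with the median of each group as a bar. Complex V has the highest median (1725 FPKM), and single low genes such as Cox6b2 (1.37 FPKM) lie far below the rest of their complex.

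A few genes lay far under the level of their complex. Within complex I, Ndufb4 (55.5 FPKM in Sham), Ndufab1 (99.0 FPKM) and Ndufa11 (99.5 FPKM) were lowest, and Atp5l was at 42.4 FPKM in complex V. Ndufs5, another complex I subunit, missed the minimum with a mean of 0.776 FPKM and reached 2.05 FPKM at most in a single library. BC002163, which GENCODE lists as a processed pseudogene, stood at 316.5 to 355 FPKM, and 12.7% of the 100-base windows of Ndufs5 transcripts occur in it. Atp5l shared 69.0%, Atp5g2 34.7% and Ndufb4 33.4% of their windows with other genes. Another 5 shared over 20% (Atp5o, Ndufb6, Ndufa13, Atp5h and Uqcrc2), and 58 of the 89 genes shared none. The shared sequence lay in processed pseudogenes or their transcripts for Atp5l, Atp5g2, Ndufb4 and Atp5h, and in a protein-coding gene of another name for Atp5o (Donson), Ndufb6 (Smim27), Ndufa13 (Tssk6) and Uqcrc2 (Pdzd9). The levels of these 8 genes and of Ndufs5 are uncertain, and the percentage does not give the size of a possible error. The percentage is over the windows of all protein-coding transcripts of a gene, so a low percentage can go with many shared windows. Ndufab1 shared 321 of 4468 windows (7.18%) and Atp5g1 287 of 4831 (5.94%), beside 291 of 872 for Ndufb4. Processed pseudogenes held such windows of Ndufab1 and Atp5g1 as well, so the levels of these 2 genes are also uncertain. The same holds for Ndufs3 (19.85%), Ndufa12 (17.71%), Cox7c (17.59%), Uqcrb (15.83%) and Atp5f1 (15.78%, also in Wdr77). Smaller shares in processed pseudogenes were those of Cox7a2l (9.98%), Cox6c (4.55%) and Cox6a1 (1.48%). Also under the minimum were Cox7b2 (0.418 FPKM) and Cox8c (0 in every library). The lowest gene kept was Cox6b2, the testis form of a complex IV subunit, with a mean of 1.18 FPKM.

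Between CKD and Sham, 1 of the 89 genes passed the test: Atp5c1, the gamma subunit that forms the rotating shaft of the synthase, fell by 10.0%. None rose. The call is an adjusted p-value under 0.05 in limma on log2(FPKM + 0.5), with Benjamini-Hochberg adjustment over all 11651 genes. By that rule 5.29% of all tested genes were called, 3.17% higher and 2.12% lower, so that calls were no more frequent among these 89 genes than in the whole table. At an unadjusted p under 0.05, 14 genes were lower and 1 was higher, beside 9.03% lower and 10.5% higher in the table. The 5 CKD values lay wholly below the 5 Sham values for 5 genes (among them Ndufs1, Ndufab1, Sdha and Atp5c1) and wholly above for none, beside 3.18% and 4.1% of all tested genes. Here a p that misses the threshold does not show that a level was the same.

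The differences were small and mostly below 0. Of the 89 genes, 76 (85.4%) had a lower mean log2 value in CKD, against 51.1% of all tested genes. The median difference was -0.060 on the log2 scale (-4.07%), with a range from -0.27 to 0.15, and the median over all tested genes was -0.0035. For 88 genes the 95% interval of the difference lay within 1.5-fold in both directions, the exception being Cox6b2. The same held for 10344 of all 11651 tested genes. The median within-group SD on the log2 scale was 0.082, against 0.14 over all tested genes. These genes are far more abundant, with a median Sham level of 736 FPKM against 9.87 FPKM over all tested genes. No genes of like level were set beside them, so neither the smaller SD nor the larger share below 0 is shown to be particular to them. Among the 58 genes that share no sequence window with another gene, 47 were below 0 and the median was -0.058. Genes of 1 library share its scaling and are not independent, so these counts are descriptions without a test.

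**Figure D2:**
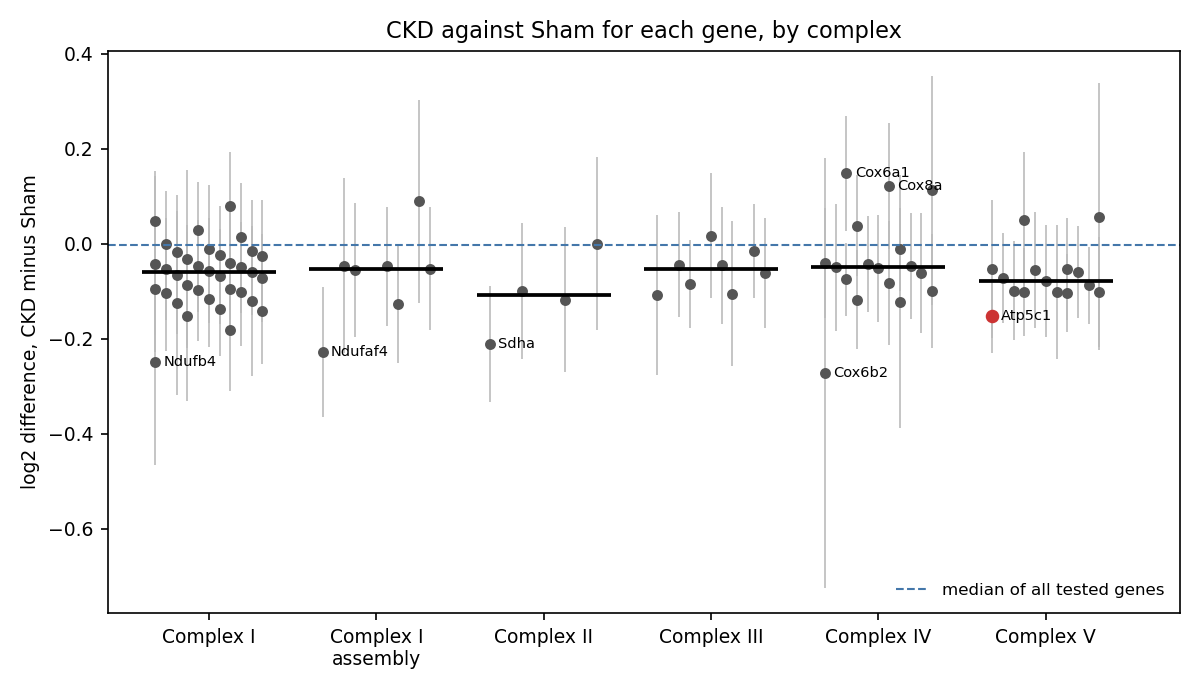
Difference of CKD from Sham in log2(FPKM + 0.5) (y axis) for each gene, 1 point per gene with its unadjusted 95% interval, grouped by complex. Black bars are the medians of the groups, the dashed line is the median of all tested genes, and the red point is Atp5c1, the only gene past the threshold. Every group median lies below 0, between -0.11 (complex II) and -0.050 (complex IV).

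By complex, the median log2 difference was -0.059 in complex I (31 of 35 genes below 0), -0.11 in complex II (3 of 4), -0.053 in complex III (7 of 8), -0.050 in complex IV (13 of 17) and -0.078 in complex V (13 of 15). The complex I assembly factors had -0.053 (6 of 7). As a summary per mouse, the log2 deviation from the Sham mean was averaged over the genes of a complex. For complex I the Sham mice ranged from -0.052 to 0.047 and the CKD mice from -0.10 to -0.037, so that the groups overlapped. Complex V gave -0.047 to 0.067 in Sham and -0.089 to -0.044 in CKD, and complex IV -0.060 to 0.050 and -0.10 to 0.018. Complex II had the lowest mean in CKD (-0.11), but Sham 1, at 0.15, stood far above the other Sham mice (-0.071 to -0.024). The order of the complexes was not tested, and their ranges in CKD overlap.

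**Figure D3:**
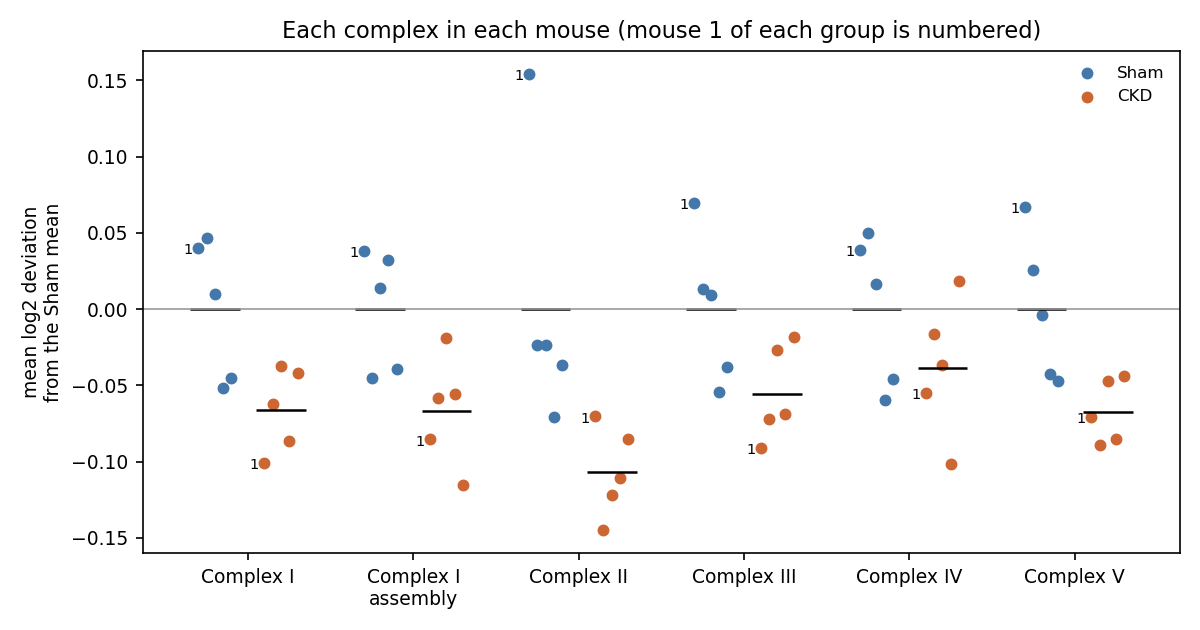
Mean log2 deviation from the Sham mean over the genes of each complex (y axis), 1 point per mouse, with black bars at the group means. The number 1 marks Sham 1 and CKD 1. Sham 1 is highest in complexes II (0.15), III and V, and the Sham and CKD points overlap in every complex.

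The share of the summed FPKM of all listed entries taken by the 89 genes was 15.6 ± 0.512% in Sham (15.22% to 16.5%) and 14.98 ± 0.154% in CKD (14.82% to 15.21%). This total lacks the mitochondrially encoded genes. The highest Sham value belonged to Sham 1. Without Sham 1 the Sham mean was 15.37%, and without CKD 1 the CKD mean was 14.93%, and the 4 remaining Sham mice (15.22% to 15.5%) stayed above the 4 remaining CKD mice (14.82% to 15.04%). By complex, the shares of complex I (3.62% to 3.87% in Sham, 3.54% to 3.61% in CKD) and complex II (0.488% to 0.557% and 0.457% to 0.484%) did not overlap between groups. Those of complex III (1.78% to 1.94% and 1.75% to 1.79%), complex IV (4.52% to 4.85% and 4.46% to 4.56%) and complex V (4.62% to 5.21% and 4.52% to 4.75%) did.

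Many promoters of this pathway are known to hold sites for NRF1, for ETS factors such as GABPA, for YY1 and, in heart and muscle, for the oestrogen-related receptors (ERR). RefSeq windows of 250 bases before to 50 bases after the start (GRCm38.p6) were found for 74 of the 89 genes and searched on both strands, each motif on its own, so that a base could count for more than 1. The NRF1 motif (GCGC, any base, T, then GCGC) was in 17 of 74 windows (23%), against 4.78% of all 27025 windows. The YY1 motif AAGATGGCG was in 7 (9.46% against 1.49%), the ERR motif TNAAGGTCA in 3 (4.05% against 1.26%), the ETS motif CCGGAAGT in 5 (6.76% against 4%) and the MEF2 motif (CTA and TAG around 4 bases of any kind) in 2 (2.7% against 3.7%). A match is only an occurrence of these letters, and binding was not measured. For 4 genes the 200 bases before the start are printed 5′ to 3′ on the gene's strand, with matches to the NRF1 motif on either strand in capitals. Atp5c1 (chr2:10080511-10080710) is the called gene, Sdha (chr13:74350241-74350440) had the lowest estimate in complex II, and Cox6a1 (chr5:115348959-115349158) and Cox8b (chr7:140900447-140900646) are a ubiquitous and a muscle form in complex IV.
Atp5c1: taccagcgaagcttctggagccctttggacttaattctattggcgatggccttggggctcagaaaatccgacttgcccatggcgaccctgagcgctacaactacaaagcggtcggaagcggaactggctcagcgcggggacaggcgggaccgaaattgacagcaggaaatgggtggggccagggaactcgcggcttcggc
Sdha: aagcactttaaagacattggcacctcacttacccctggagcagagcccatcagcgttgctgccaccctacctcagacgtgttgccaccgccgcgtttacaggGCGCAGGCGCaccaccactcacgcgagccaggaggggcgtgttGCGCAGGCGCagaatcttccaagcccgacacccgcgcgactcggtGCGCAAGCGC
Cox6a1: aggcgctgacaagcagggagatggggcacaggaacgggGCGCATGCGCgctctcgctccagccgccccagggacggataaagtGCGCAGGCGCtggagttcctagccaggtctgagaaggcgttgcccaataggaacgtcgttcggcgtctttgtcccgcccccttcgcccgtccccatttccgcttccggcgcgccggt
Cox8b: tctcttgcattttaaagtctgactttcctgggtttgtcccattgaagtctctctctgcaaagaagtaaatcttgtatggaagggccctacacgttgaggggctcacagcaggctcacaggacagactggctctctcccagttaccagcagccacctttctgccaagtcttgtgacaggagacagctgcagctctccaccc
Sdha holds 3 NRF1 matches in this stretch and Cox6a1 holds 2, and the stretches of Atp5c1 and Cox8b hold none.

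Complex V contained the called gene. Atp5c1 (chr2:10056030-10080510, GRCm38) was at 1308, 1358, 1345, 1334 and 1297 FPKM in Sham and at 1151, 1167, 1227, 1217 and 1216 FPKM in CKD. All 5 CKD mice lay below all 5 Sham mice. The means were 1328 ± 25.6 and 1196 ± 34.4 FPKM, a log2 difference of -0.15 (SE 0.036, 95% interval -0.23 to -0.074, adjusted p = 0.0324). The call did not hold when any 1 of the CKD mice, or Sham 2, Sham 3 or Sham 4, was left out, with no filter, or with no variance trend (adjusted p up to 0.0938 over all alternatives). Without both CKD 1 and Sham 1 the adjusted p was 0.0345.

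The other genes of the synthase had smaller estimates, and none passed the test. Of the F1 head, which holds the catalytic sites, all 5 genes were below 0 with a median of -0.10, among them Atp5b (4354 ± 146 to 4096 ± 94.5 FPKM, log2 -0.088, adjusted p = 0.218) and Atp5a1, the alpha subunit (2953 ± 145 to 2750 ± 72.6 FPKM, log2 -0.10, adjusted p = 0.205). Atp5d and Atp5e, the delta and epsilon subunits of the central stalk, were at -0.10 and -0.099 (adjusted p = 0.432 and 0.285). The 4 genes of the peripheral stalk, which holds the head still against the rotor, had a median of -0.086, with Atp5j at -0.10 (adjusted p = 0.144). Atp5h, also of this stalk, was at -0.072 (adjusted p = 0.404). It passed in 1 of 21 alternatives (adjusted p = 0.0325), and its estimate ran from -0.22 to -0.047 over them. The 3 c-ring genes had a median of -0.053. Of the 3 other membrane subunits, Atp5k (log2 0.050) and Atp5l (log2 0.057) had estimates above 0 and Atp5j2 below (-0.055), and none of the 3 passed the test. Atp5s (log2 -0.065, adjusted p = 0.597) and Atp5sl (-0.10, adjusted p = 0.365) did not pass either.

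In complex II the estimate for Sdha, the flavoprotein that oxidises succinate, was the lowest of the complex. Its FPKM was 832, 717, 704, 711 and 717 in Sham and 673, 590, 617, 633 and 665 in CKD, and the groups did not overlap. The means were 736 ± 53.7 and 636 ± 34.2 FPKM (log2 -0.21, SE 0.056, adjusted p = 0.0524), just outside the threshold. Sdha (chr13:74322255-74350240) passed in 6 of 21 alternatives, with adjusted p down to 0.0218. Sham 1 was far above the other Sham mice, and without both CKD 1 and Sham 1 the adjusted p was 0.0312 (0.045 without CKD 1 alone). Sdhb, the iron-sulfur subunit, had a log2 difference of -0.099 (1101 ± 61.8 to 1030 ± 89.2 FPKM, adjusted p = 0.445). The membrane anchors Sdhc (-0.12, adjusted p = 0.395) and Sdhd (0.00061, adjusted p = 0.999) overlapped between groups, and the sign of Sdhd turned under several settings.

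No gene of complex I passed the test in either direction. All 7 core subunits, which carry the flavin, the iron-sulfur clusters or the quinone site, were below 0, with a median of -0.071, and 24 of 28 accessory subunits were below 0, with a median of -0.050. Among the core genes, Ndufs1, an iron-sulfur subunit of the NADH-oxidising arm, was at 485, 434, 430, 456 and 443 FPKM in Sham and 413, 385, 408, 417 and 421 in CKD. The groups did not overlap (450 ± 22.3 to 409 ± 14.2 FPKM, log2 -0.14, SE 0.045, adjusted p = 0.105). Ndufv2, an iron-sulfur subunit beside the flavin site, gave 413 ± 26.9 and 374 ± 15.8 FPKM (log2 -0.14, adjusted p = 0.146), with Sham 1 above all other mice. Estimates for 4 further core genes, Ndufs3, Ndufs7, Ndufs8 and Ndufv1, lay between -0.071 and -0.050, with adjusted p from 0.392 to 0.6. Among the accessory subunits, Ndufab1, the mitochondrial acyl carrier protein, gave 99.0 ± 8.70 and 87.0 ± 2.41 FPKM (log2 -0.18, adjusted p = 0.106) without overlap, and Ndufb11 690 ± 40.1 and 636 ± 16.3 FPKM (log2 -0.12, adjusted p = 0.181). The lowest estimate was that of Ndufb4 (log2 -0.25, adjusted p = 0.189), and the highest that of Ndufb3 (log2 0.080, adjusted p = 0.445). The sequences of Ndufb4, Ndufab1 and Ndufs3 are in part shared as given above. Without both CKD 1 and Sham 1, Ndufb3 was called higher (log2 0.13, adjusted p = 0.0497). The most abundant genes, Ndufa3 (1510 ± 47.9 to 1415 ± 74.5 FPKM) and Ndufb9 (1502 ± 85.3 to 1476 ± 89.8 FPKM), had adjusted p of 0.267 and 0.853.

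Among the assembly factors of complex I, Ndufaf4 had the lowest estimate, with 21.5 ± 1.61 FPKM in Sham and 18.3 ± 0.930 in CKD (log2 -0.23, SE 0.063, adjusted p = 0.0577). Its groups overlapped through Sham 2 (19.1 FPKM). Without that mouse it passed (adjusted p = 0.0341), as it did in 4 of 21 alternatives in all. Ndufaf3 was at -0.13 (adjusted p = 0.249) and Ndufaf2 at 0.089 (adjusted p = 0.688). Of 6 other complex I assembly factors, Acad9, which is also an acyl-CoA dehydrogenase, fell (16.2 ± 0.639 to 13.9 ± 0.622 FPKM, log2 -0.21, adjusted p = 0.0383), and the other 5 did not pass. The call for Acad9 was lost in 10 of 21 alternatives, among them leaving out any 1 mouse except CKD 1 (adjusted p up to 0.101).

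In complex III no gene passed the test. Uqcrq, a small subunit, had an estimate of -0.11 (adjusted p = 0.491), which was -0.039 without Sham 2. The highest estimate was that of Uqcrh, the hinge protein at cytochrome c1 (0.017, adjusted p = 0.92), and its sign turned under some settings. Uqcrfs1, the Rieske iron-sulfur protein, also had an estimate of -0.11 (-0.039 without Sham 1). It was at 1184, 953, 959, 909 and 940 FPKM in Sham and 1002, 884, 920, 871 and 906 in CKD. These overlapped, and Sham 1 was the highest of all. The core proteins Uqcrc1 and Uqcrc2 were at -0.084 and -0.061 (adjusted p = 0.3 and 0.589). The heme protein Cyc1, whose symbol lies outside the rule, was at -0.0082 (adjusted p = 0.976), and its sign turned under several settings.

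Complex IV also had no call. The highest estimates were those of 2 ubiquitous forms, Cox6a1 (194 ± 11.9 to 215 ± 11.8 FPKM, log2 0.15, SE 0.055, adjusted p = 0.154) and Cox8a (278 ± 25.2 to 302 ± 12.5 FPKM, log2 0.12, adjusted p = 0.294). Cox6a1 was the 1 gene with an unadjusted p under 0.05 in the upward direction. Its FPKM was 199, 202, 192, 174 and 201 in Sham and 214, 232, 202, 205 and 220 in CKD, so that the groups touched at 202. Cox7c, a small subunit without a muscle form, had a log2 difference of -0.12 (1283 ± 75.9 to 1182 ± 41.1 FPKM, adjusted p = 0.197), and Cox6c, another, -0.075 (2055 ± 47.7 to 1951 ± 44.3 FPKM, adjusted p = 0.267). The sequences of Cox7c and Cox6c are in part shared as given above. Under quantile normalization Cox6c passed, at -0.14 (adjusted p = 0.0434). The largest estimate below 0 was that of Cox6b2 (log2 -0.27, SE 0.21, 95% interval -0.72 to 0.18), whose level near 1 FPKM leaves its difference poorly determined. Cox4i1, the main form of subunit 4, gave 3045 ± 132 and 3019 ± 68.3 FPKM (log2 -0.011, adjusted p = 0.921).

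**Figure D4:**
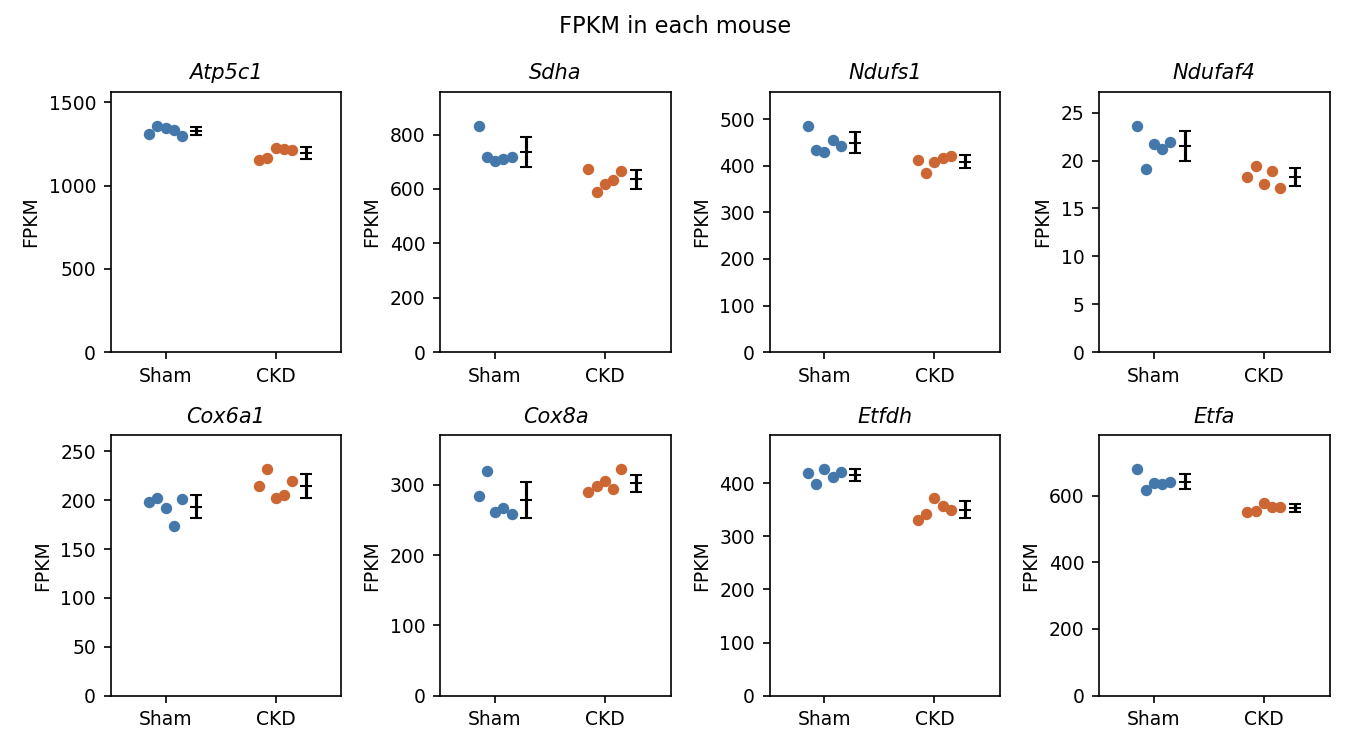
FPKM (y axes from 0) in each mouse for 6 members and 2 genes of the electron transfer flavoprotein pathway, with the mean and SD of 5 mice beside the points. The CKD points lie below all Sham points for Atp5c1, Sdha, Ndufs1, Etfdh and Etfa, and overlap them for Ndufaf4, Cox6a1 and Cox8a.

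Several complex IV and complex V subunits exist as paralogues, and in the 3 complex IV pairs with a heart and muscle form that form was the more abundant. In Sham, Cox6a2 was 17.4 ± 0.990 times as abundant as Cox6a1, Cox8b 10.9 ± 1.03 times as abundant as Cox8a, and Cox7a1 8.13 ± 0.903 times as abundant as Cox7a2. Cox4i2, a form best known from lung, stood at 13.0 FPKM beside 3045 FPKM of Cox4i1, and Ndufa4l2, a form induced by low oxygen, at 16.4 FPKM beside 2918 of Ndufa4. Of the 3 genes that encode the same mature c-ring protein, Atp5g3 had 3365 FPKM, Atp5g1 1284 FPKM and Atp5g2 175 FPKM.

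A plain ratio within a library does not depend on how libraries were scaled. The log2 ratios were taken after adding 0.5 FPKM to each gene, so for them this holds only nearly. It holds least for Cox6b2, whose mean was 1.18 FPKM. By exact two-sided permutation tests, whose smallest p is 0.00794, 8 pairs were compared. None passed after adjustment over the 8 pairs, but at that smallest p a single pair could not pass it alone, so this outcome was set in part by the design. For Cox6a2 to Cox6a1 the ratios were 18.3, 17.5, 16.7, 18.4 and 16.1 in Sham and 16.9, 13.0, 15.5, 15.7 and 14.4 in CKD. Only CKD 1 reached into the Sham range. The means were 17.4 ± 0.990 and 15.1 ± 1.46 (log2 -0.21, SE 0.074, exact permutation p = 0.0238, adjusted p = 0.19). Cox8b to Cox8a gave 10.9 ± 1.03 and 9.64 ± 0.431 (log2 -0.17, SE 0.067, exact permutation p = 0.0635, adjusted p = 0.254). Cox7a1 to Cox7a2 gave 8.13 ± 0.903 and 7.85 ± 0.817 (log2 -0.050, SE 0.10, exact permutation p = 0.603). The share of the pair's FPKM that came from the ubiquitous form was 5.44% in Sham and 6.26% in CKD for Cox6a1, and 8.48% and 9.41% for Cox8a. For the pairs with 1 form of low level, Cox4i2 to Cox4i1 had a log2 difference of -0.11 (exact permutation p = 0.373), Cox6b2 to Cox6b1 -0.31 (SE 0.23, exact permutation p = 0.254) and Ndufa4l2 to Ndufa4 0.15 (exact permutation p = 0.317). For the c-ring pair of Atp5g1 to Atp5g3 the ratio was 0.381 in both groups (exact permutation p = 1), and for Atp5g2 to Atp5g3 it was 0.0522 ± 0.0054 and 0.0512 ± 0.00317 (exact permutation p = 0.762).

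**Figure D5:**
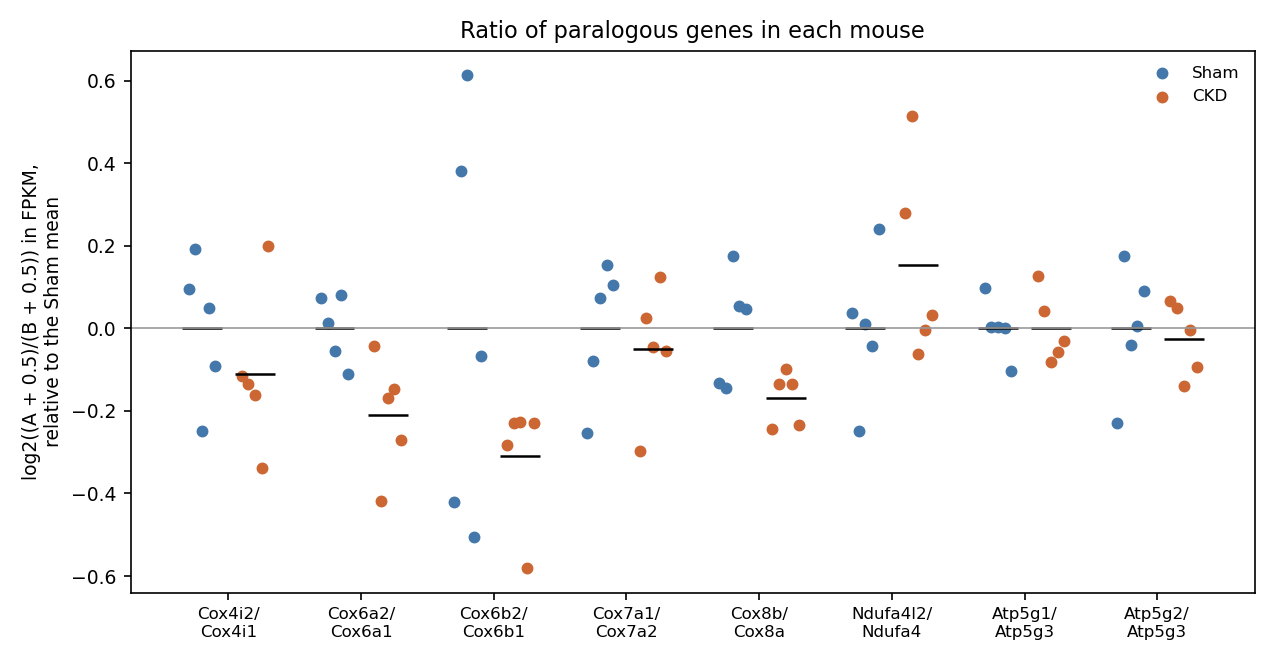
Log2 ratio of paralogous genes after adding 0.5 FPKM to each, relative to the Sham mean of that pair (y axis), 1 point per mouse, with black bars at the group means. Sham and CKD points overlap in all 8 pairs. The CKD mean is -0.21 for Cox6a2/Cox6a1 and -0.17 for Cox8b/Cox8a.

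Of 11 genes that feed electrons into the chain or carry its substrates, 4 fell and none rose, beside 2.12% of all tested genes called lower. The list was chosen with earlier results known, and its difference from the other genes was not tested. Etfdh, which hands electrons from fatty acid oxidation to ubiquinone, was at 420, 398, 426, 412 and 422 FPKM in Sham and 331, 343, 373, 357 and 349 in CKD. Every CKD mouse lay below every Sham mouse (416 ± 11.04 to 351 ± 15.7 FPKM, log2 -0.25, SE 0.042, adjusted p = 0.00688). Etfa, a subunit of the electron transfer flavoprotein that supplies Etfdh, fell from 642 ± 22.9 to 563 ± 10.9 FPKM (log2 -0.19, adjusted p = 0.0157). Both calls held in all 21 alternatives (adjusted p up to 0.0268 and 0.0491). Its partner subunit Etfb (710 ± 50.2 to 609 ± 33.5 FPKM, adjusted p = 0.0464) and Vdac1, the outer membrane channel (752 ± 24.1 to 682 ± 11.8 FPKM, adjusted p = 0.049), also fell, but lost their calls in 12 and 15 of 21 alternatives. Leaving out any 1 mouse except Sham 1 ended the call for Etfb, and leaving out any 1 mouse ended that for Vdac1 (adjusted p up to 0.116 and 0.124). The heart ADP/ATP carrier Slc25a4 (log2 0.0075, adjusted p = 0.955) and cytochrome c, Cycs (-0.046, adjusted p = 0.843), did not pass.

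Lists for making and assembling the complexes held few calls. None of 2 complex II, 4 complex III, 15 complex IV and 4 complex V assembly factors was called, nor any of 4 supercomplex and synthase-associated genes. The 74 genes of the mitochondrial ribosome had no call and a median of -0.021 (47 below 0), and the 23 tested import genes had none and a median of 0.0061 (11 below 0). Of the 8 tested regulators none passed, and their median was -0.093 (7 below 0). Esrra, which encodes an ERR, was the closest, with 69.2 ± 4.00 FPKM in Sham and 59.4 ± 4.24 in CKD without overlap (log2 -0.22, adjusted p = 0.0585). It passed in 3 of 21 alternatives (adjusted p down to 0.0392). Ppargc1a, the coactivator of mitochondrial biogenesis and the only regulator above 0, gave 20.9 ± 2.51 and 22.4 ± 5.37 FPKM (log2 0.073, adjusted p = 0.843). Cox7a2l, which joins complexes III and IV, was at 150 and 149 FPKM (SD 4.203 and 4.099, log2 -0.012, adjusted p = 0.92).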

How the data were processed

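Left ventricular mRNA of 10 mice was sequenced as single reads of 100 bases on an Illumina HiSeq 1000, per the labels' protocols. The authors deposited FPKM per gene. The submitters' processing notes name STAR 2.4.0f1, Cufflinks 2.1.1, Cuffdiff 2.1.1 and the builds mm10 and hg19, with no roles. FPKM does not show read depth, so counting error is unknown. Entries joining several symbols (272) held none of these genes. Genes with a mean of at least 1 FPKM over 10 libraries were tested with limma 3.58.1 in R 4.3.3 on log2(FPKM + 0.5), with a variance trend, and p-values were adjusted over 11651 genes. The pseudocount shrinks the differences of genes near 1 FPKM. The fit was tested on simulated data. Ratios used exact permutation tests in scipy 1.17.1. Shared sequence was counted in 100-base windows of GENCODE vM21 transcripts. Members and lists were chosen with earlier results of these data known. Named members were the called genes, the most and least abundant and those with extreme differences per complex, both genes of each paralogue pair, and those given apart. From lists, called genes were named. Ndufs1, Ndufs3, Ndufs7, Ndufs8, Ndufv1, Ndufv2, Ndufab1, Ndufa11, Ndufb11, Sdhc, Uqcrc1, Uqcrfs1, Cox6c, Cox7c, Atp5a1, Atp5d, Atp5e, Atp5f1, Atp5h, Atp5j, Atp5j2, Atp5o, Cyc1, Cycs, Slc25a4, Esrra, Ppargc1a and BC002163 were chosen after their values were seen. The values of 1 gene are not reported here. Alternatives were 2 pseudocounts, 2 filters, 3 scalings, 3 variance models, each mouse left out, and CKD 1 and Sham 1 left out together.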

Additional observations from a re-analysis of the deposited data

Results flagged for a closer look

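Of 180 groups of 5 values examined, 18 held 1 mouse far from the others (a gap to the nearest value of more than 0.71 of the group's range). Chance flags about 1 in 20 groups. Sham 1 was high for Sdha (832 FPKM, others 704 to 717), Sdhc (731, others 558 to 604), Sdhd (668, others 481 to 514), Atp5g1 (1522, others 1193 to 1276), Atp5f1 (926, others 786 to 802), Uqcrfs1 (1184, others 909 to 959), Ndufs3 (467, others 414 to 429) and Ndufv2 (459, others 391 to 410). The mean log2 deviation of complex II was 0.15 in Sham 1 and -0.071 to -0.024 in the other Sham mice.

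CKD 1 was low for Ndufb9 (1316 FPKM, others 1504 to 1527), Ndufa4 (2480, others 2885 to 3006), Uqcrh (1548, others 1794 to 1880) and Sdhb (875, others 1046 to 1094). It was high for Sdhd (591, others 510 to 529) and Cyc1 (1185, others 1000 to 1028). These 2 libraries are also the ones in which the 10 most abundant genes took the smallest share of FPKM.

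Other single values were Ndufaf5 in Sham 5 (7.42 FPKM, others 9.06 to 9.51), Ndufa4l2 in CKD 2 (23.3 FPKM, others 16.1 to 16.9) and BC002163 in Sham 2 (355 FPKM, others 325.6 to 334).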

How the results depend on the processing

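The number of the 89 genes called lower was 1 as reported, 0 with no filter or no variance trend, 3 with a minimum mean of 5 FPKM, quantile normalization, a shift to the same median or sample weights, and 2 with a robust variance model. Without both CKD 1 and Sham 1 it was 2 lower and 1 higher. Leaving out 1 mouse gave 0 to 1. Over all genes, leaving out 1 mouse gave 201 to 384 higher and 131 to 290 lower, and sample weights gave 400 lower. From 69 to 78 of the 89 genes were below 0 over the alternatives, and the median over all of them ran from -0.074 to -0.050. No paired analysis was possible because the sample titles number all mice in 1 series and link no CKD mouse to a Sham mouse. FPKM leaves the depth, and so the counting error of low genes, unknown.

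Some signs turned, all far from the threshold and with the cause not tested. Under quantile normalization these were Sdhd (-0.032), Uqcrh (-0.028), Cox6b1 (-0.033), Slc25a4 (-0.023) and Cyc1 (0.0089). A shift to the same median turned Sdhd (-0.0064). Sample weights turned Ppargc1a (-0.0081) and Cyc1 (0.011). Without both CKD 1 and Sham 1 these were Cox4i1 (0.00098), Cyc1 (0.016) and Cycs (0.016). Leaving out 1 mouse gave ranges across 0 for Ndufb9 (-0.051 to 0.014), Sdhd (-0.038 to 0.084), Uqcrh (-0.0039 to 0.066), Ndufa4 (-0.061 to 0.0086), Atp5g1 (-0.080 to 0.0098), Atp5l (-0.032 to 0.14), Cox4i1 (-0.028 to 0.0097), Cox7a2 (-0.085 to 0.00085), Cox7a2l (-0.027 to 7.0e-05), Slc25a4 (-0.017 to 0.027), Cyc1 (-0.055 to 0.062), Cycs (-0.093 to 0.040), Ppargc1a (-0.017 to 0.16) and BC002163 (-0.0045 to 0.031). The ratios that crossed 0 were Cox7a1/Cox7a2 (-0.11 to 0.012), Atp5g1/Atp5g3 (-0.032 to 0.025) and Atp5g2/Atp5g3 (-0.082 to 0.019).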
